A study of Homo sapiens with 6 samples.

Results

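Transcripts of the EGFR ligands, of the proteases that release these ligands from the cell surface, and of RHBDF2, which regulates one of those proteases, were examined on arrays of pLUM and pLB cells. The genes were AREG, EREG, EPGN, HBEGF, BTC, TGFA, EGF, ADAM10, ADAM17 and RHBDF2, and every probe that carried one of these names was taken, without regard to its signal. This gave 10 of 24044 named genes and 13 of 34127 probes. pLUM and pLB are isogenic lines made from tumors that T47Dco human breast cancer cells formed in ovariectomized NSG mice, which lack functional lymphocytes. pLUM came from a tumor grown under estradiol (E) and was sorted as CLD3+CD49f-, and pLB came from a tumor grown under E plus progesterone and was sorted as CLD3-CD49f+. For the arrays, E was given to pLUM cells at 1 nM over 72 h, and pLB cells were kept estrogen-withdrawn (EWD). All cells were fixed, stained for CK5 and sorted before RNA extraction, and the CK5 fraction that was hybridized is not given in the sources used here. There were 3 pLUM and 3 pLB arrays, each from its own sort of the same single line, so that line and hormone cannot be told apart and the replicates do not sample independent isolates.

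EGFR ligands are made as membrane-anchored precursors. Metalloproteases of the ADAM family cut the precursor outside the membrane, and the freed growth factor binds EGFR on the same or a neighboring cell. ADAM17 is the main sheddase of AREG, EREG, HBEGF and TGFA, and ADAM10 that of EGF and BTC, and RHBDF2 (iRhom2) escorts ADAM17 from the endoplasmic reticulum to the surface. In the mammary gland AREG is known as an estrogen-induced ligand that drives duct growth, and basal epithelial cells are known for expressing EGFR.

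The lines carried the markers of their labels. By the probe brightest on average, 7 of 8 luminal markers were lower and none was higher in pLB. All 6 luminobasal markers, EGFR included, were higher in pLB. A dimmer KRT8 probe was called 3.72-fold higher in pLB, and another 5.95-fold lower. CLDN3 and ITGA6 (CD49f) were used to sort the lines, and KRT5 (CK5) was stained for the last sort, so that these genes are no independent check. The other markers are also among those the paper reports for these lines. Of 11 markers of leukocytes, endothelium and fibroblasts, CD68, VWF and COL1A2 were called higher in pLB, and their part in the results below was not tested. Relative to the 75th percentile of the array, the summed signal of the 11 markers was 1.16 to 1.22 in pLUM and 1.12 to 1.70 in pLB. The probe of COL1A1, which was not called, read highest of them on every array. These probes have no common scale, so that similar sums do not show that single markers were alike. PECAM1, COL3A1 and PDGFRB were not well above background on any array. Pearson's r across tested probes was 0.972 to 0.991 between arrays of the same line and 0.780 to 0.806 between lines. pLUM replicates 1, 2 and 3 and pLB replicate 1 shared slide 1, and pLB replicates 2 and 3 were on slide 2.

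Signals are log2 of the background-corrected intensity relative to the 75th percentile of the array, a difference is pLB minus pLUM on that scale, and a probe was tested with limma if 3 or more of the 6 arrays read it well above background. A gene was called when the lines differed by 2-fold or more with a Benjamini-Hochberg adjusted p under 0.05, and where it had several probes, the brightest on average stood for it. Since signals of different probes have no common scale, levels are compared only between lines, never between genes. In sorted cells measured in bulk, fewer cells that express a gene and less RNA per cell cannot be told apart.

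All 10 genes were tested. In pLB 8 of them were called higher (AREG, EREG, EPGN, HBEGF, BTC, ADAM10, ADAM17 and RHBDF2), EGF was called lower, and TGFA was not called. Over the 16772 genes tested, 46.6% were called, 23.0% higher and 23.6% lower. The 3 pLB arrays lay above the 3 pLUM arrays for 9 of the 10 genes and below them for EGF, and over all tested genes the arrays did not overlap for 70.4%, 36.1% higher and 34.2% lower in pLB. EREG, EPGN and HBEGF passed the filter only through their 3 pLB arrays, so that the filter set their direction in both counts. Among the 5 genes well above background on all 6 arrays, 4 were called higher and 0 lower. The median difference was 2.79 over the 10 genes and 0.03 over all genes, and it was 2.50 with the 3 genes that were not well above background in pLUM set to their lower bound. By role, 5 of 7 ligands, both sheddases and the regulator were called higher. With normexp background correction, which also adds an offset of 50 to every intensity, 5 of the 10 genes were called higher, with HBEGF, BTC and ADAM17 no longer called. The correction and its offset were changed together, and their parts were not tested separately.

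**Figure D1:**
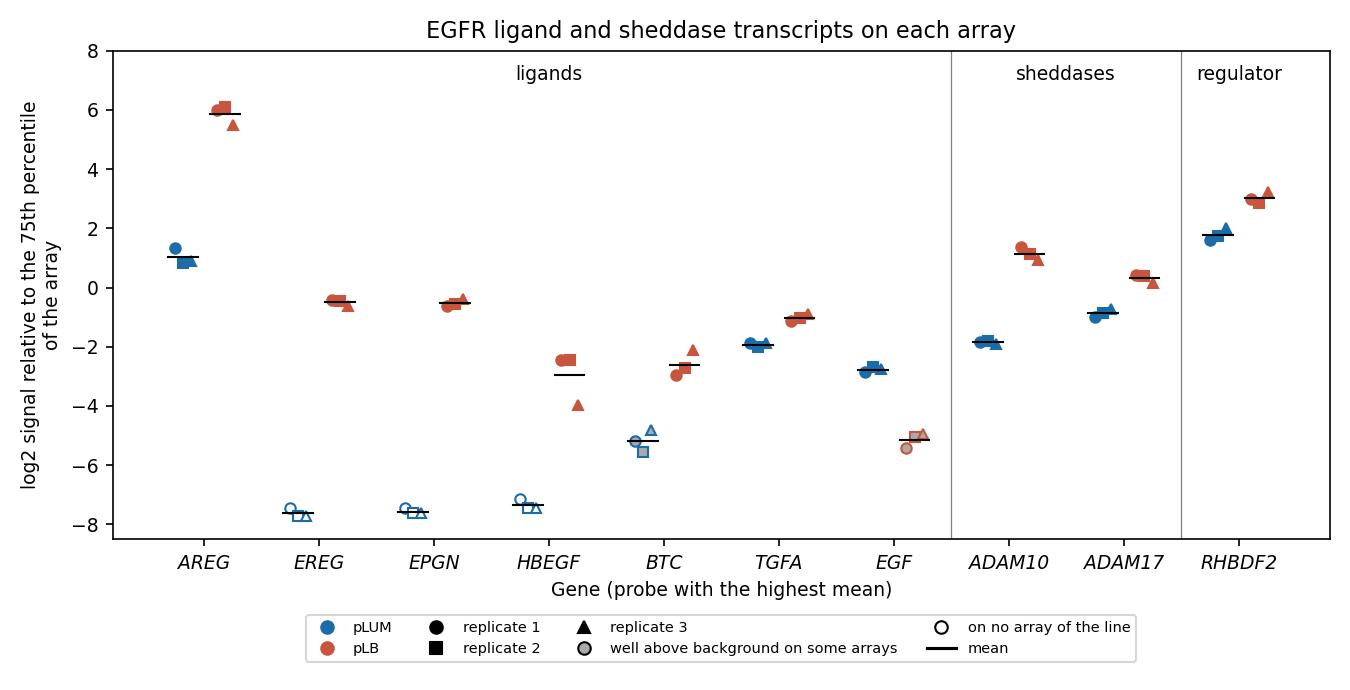
log2 signal relative to the 75th percentile of the array (y axis) of the probe with the highest mean for each gene (x axis), 1 symbol per array and a line at the mean of the 3 arrays of pLUM (blue) and pLB (red). Filled symbols are genes well above background on all 3 arrays of the line, grey ones on some, and open ones on none; the pLB symbols lie above the pLUM symbols for 9 genes and below them for EGF.

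AREG, EREG, EPGN and BTC lie on chromosome 4, where their probes spanned 497.1 kb in hg19. The probes that carried the ligand results are shown because each measures only the stretch of transcript it matches. EPGN, TGFA and the second AREG probe are given whole, at 60 bases, and the other probes by their first 30 bases, in the sense of the transcript, with coordinates of the whole probe in hg19.
AREG, chr4:75320518-75320577, plus strand: tgagtcggtcctctttccagtggatcataa
AREG, second probe, chr4:75318293-75318352, plus strand: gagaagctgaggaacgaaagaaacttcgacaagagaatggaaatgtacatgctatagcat
EREG, chr4:75254009-75254068, plus strand: tgttcatatgggagaagggggagtaatgac
EPGN, chr4:75178782-75178841, plus strand: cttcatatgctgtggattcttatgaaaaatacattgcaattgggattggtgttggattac
BTC, chr4:75675838-75675897, minus strand: agagagttgacttgttttacctaagaggag
HBEGF, chr5:139713052-139713111, minus strand: cccatctgtagtaatttattgtctgtctac
TGFA, chr2:70683472-70683531, minus strand: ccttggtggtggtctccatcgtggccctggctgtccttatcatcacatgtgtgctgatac
EGF, chr4:110932689-110932748, plus strand: aactataggttttggttccacaatctctac

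AREG encodes amphiregulin. Its log2 signal was 1.35, 0.81 and 0.91 in pLUM replicates 1, 2 and 3, and 6.01, 6.10 and 5.48 in pLB replicates 1, 2 and 3. This probe was therefore above the 75th percentile of the array in both lines, and its lowest pLB array exceeded the highest pLUM array by 4.12. On the intensity scale, the pLUM arrays read 1210, 986 and 1060, and the pLB arrays 56076, 47754 and 19993. The pLB mean exceeded the pLUM mean by 4.84 ± 0.24 (SE), which is 28.6-fold (limma adjusted p = 4.5e-06). The second AREG probe, nearer the start of the gene, gave -1.19, -1.34 and -0.98 in pLUM and 3.76, 3.53 and 3.30 in pLB, a difference of 26.0-fold. Both probes thus placed all pLB arrays above all pLUM arrays with folds whose 95% intervals, 19.4 to 42.3 and 19.0 to 35.4, overlapped. RefSeq for GRCh38.p14 lists AREGB, a near-identical copy in older assemblies, as a synonym of AREG, and the signal of such a copy cannot be told apart from that of AREG here.

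EREG encodes epiregulin, a ligand of EGFR and ERBB4. In pLUM its log2 signal was -7.44, -7.72 and -7.71, and no array was well above background, whereas it was -0.42, -0.44 and -0.61 in pLB, clear of background throughout. The fitted difference, which uses the pLUM signals as read, was 7.13 (limma adjusted p = 3.1e-07). The excess in pLB was at least 29.6-fold, and this bound was 5.09-fold with normexp background correction. For the bound, a pLUM array counted with the lowest signal well above background on it, or with the signal of the probe if that was higher. The pLB arrays differed among themselves by far less than they differed from pLUM, with an SD of 0.11 (n = 3).

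EPGN encodes epigen, a ligand of EGFR, and its gene is next to EREG. The pLUM arrays read -7.46, -7.63 and -7.62, again not well above background, and the pLB arrays -0.64, -0.55 and -0.39. The fitted difference was 7.04 (limma adjusted p = 2.9e-07). The excess in pLB was at least 28.8-fold, and the bound was 4.91-fold with normexp. As for EREG, the pLB arrays were all high and close together, with an SD of 0.12 (n = 3).

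HBEGF, on chromosome 5, encodes heparin-binding EGF-like growth factor, which binds EGFR and ERBB4. It was not well above background in pLUM, at -7.15, -7.46 and -7.45, and read -2.43, -2.45 and -3.96 in pLB. pLB replicate 3 was the low array, although well above background, and the SD of 0.87 (n = 3) was the widest of any line and gene here, the others being 0.05 to 0.44. The excess in pLB was at least 5.39-fold, and this bound was 1.36-fold with normexp. The fitted difference, which uses the pLUM signals as read, was 4.41 (limma adjusted p = 8.4e-05). With normexp the difference was 0.58 (adjusted p = 0.26) and HBEGF was not called.

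BTC encodes betacellulin, another ligand of both EGFR and ERBB4, and lies at the far end of the chromosome 4 group. Signals in pLUM were -5.17, -5.55 and -4.80, with 2 of 3 arrays well above background, and those in pLB were -2.96, -2.73 and -2.11. The lines did not overlap, and BTC was 5.95-fold higher in pLB (limma adjusted p = 0.00021, SE of the log2 difference 0.29). With normexp the difference was 0.55 (adjusted p = 0.24) and BTC was not called. Its intensities, 12.0 to 20.3 in pLUM and 104 to 111 in pLB, were low in both lines.

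TGFA, on chromosome 2, encodes transforming growth factor alpha. Its log2 signal was -1.89, -2.02 and -1.88 in pLUM and -1.14, -1.04 and -0.88 in pLB, well above background on all 6 arrays. All pLB arrays were above all pLUM arrays, but the difference of 1.88-fold (95% interval 1.45 to 2.43) stayed under the 2-fold threshold (limma adjusted p = 0.0019). A further TGFA probe was not well above background on any array and was not tested, with -7.19 to -7.40 in pLUM and -5.54 to -4.89 in pLB. With spike-in scaling the difference was 1.16 and TGFA was called.

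EGF encodes the epidermal growth factor precursor and lies on chromosome 4 far from the other ligands. The pLUM arrays read -2.87, -2.70 and -2.74, and the pLB arrays -5.43, -5.05 and -4.95, with 1 of these 3 well above background. EGF was the ligand whose pLUM arrays were the higher ones, and it was 5.19-fold lower in pLB (95% interval 3.84 to 7.01, limma adjusted p = 3.5e-05). With normexp it was called too, with a difference of -1.24.

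**Figure D2:**
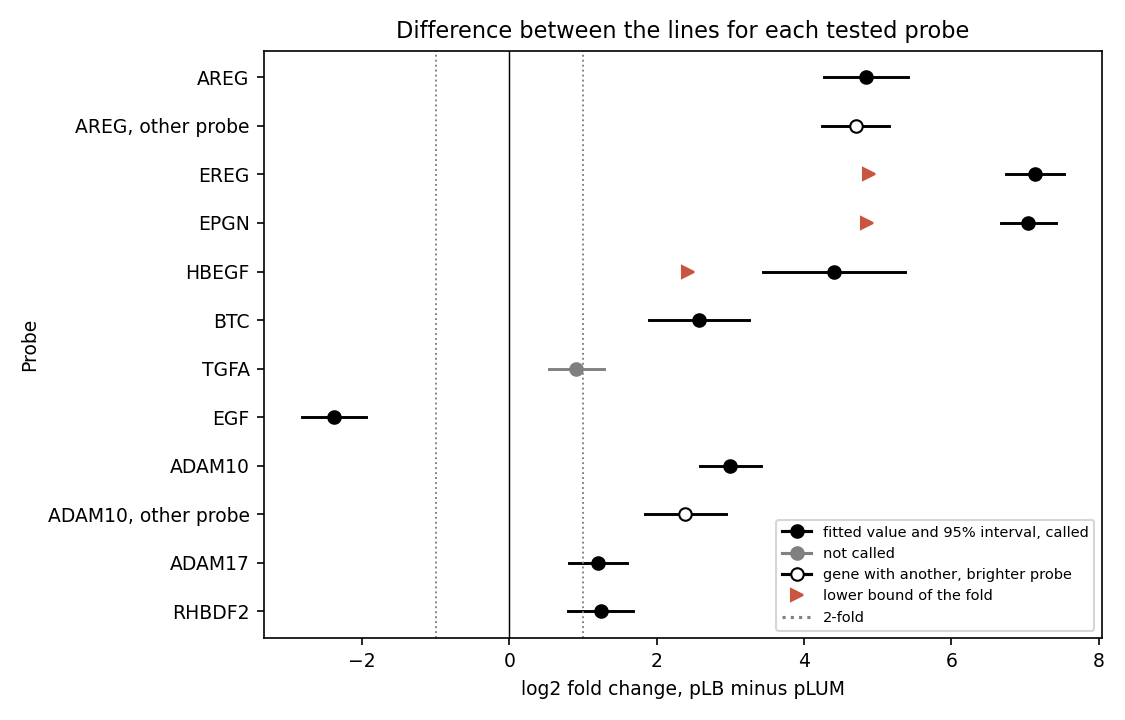
log2 fold change of pLB minus pLUM (x axis) for each of the 12 tested probes (y axis), with its 95% interval from limma; dotted lines mark 2-fold and red triangles the lower bound of the fold where pLUM was not well above background. EGF is the only probe below 0, and the intervals of TGFA, ADAM17 and RHBDF2 cross 2-fold.

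ADAM10, on chromosome 15, encodes the sheddase of EGF and BTC. In pLUM it read -1.85, -1.82 and -1.90, and in pLB 1.37, 1.14 and 0.92, so that the pLUM arrays were nearly alike and every pLB array was higher by at least 2.73. The fold was 7.99 (SE of the log2 difference 0.18, limma adjusted p = 9.4e-06). A second ADAM10 probe, close to the first in the transcript (chr15:58889255-58889314 against chr15:58889401-58889460 in hg19), read -2.50, -2.91 and -2.82 in pLUM and 0.01, -0.32 and -0.75 in pLB. It gave 5.24-fold (95% interval 3.57 to 7.71), against 6.00 to 10.6 for the first probe.

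ADAM17, on chromosome 2, encodes the sheddase of most of the ligands that were higher in pLB. Signals were -1.01, -0.87 and -0.72 in pLUM and 0.44, 0.40 and 0.17 in pLB, with no overlap between lines. ADAM17 was 2.30-fold higher in pLB (95% interval 1.75 to 3.03, limma adjusted p = 0.00063). Its interval lay below that of either ADAM10 probe, although the difference between the genes was not tested. With normexp ADAM17 was at 0.96, just under 2-fold, and was not called.

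RHBDF2, on chromosome 17, encodes iRhom2. Its log2 signal was 1.59, 1.74 and 2.00 in pLUM and 2.98, 2.85 and 3.22 in pLB, well above background on all 6, and the arrays did not overlap. RHBDF2 was 2.36-fold higher in pLB (95% interval 1.74 to 3.21, limma adjusted p = 0.00092). RHBDF1 (iRhom1), its paralog, which also escorts ADAM17, was 2.01-fold lower in pLB, at 3.43, 3.26 and 3.84 in pLUM and 2.39, 2.51 and 2.60 in pLB (95% interval 1.46 to 2.78, limma adjusted p = 0.0033). It thus only just reached the 2-fold threshold. FRMD8, which stabilizes the complex of iRhom and ADAM17, was higher on every pLB array than on any pLUM array, but at 1.999-fold it fell just short of a call.

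The 41 other listed genes of ligand release and EGFR signaling contained 38 tested genes. Of these, 16 were called higher and 4 lower in pLB, with a median difference of 0.55. Over all genes tested, 23.0% were called higher and 23.6% lower, the shares to set beside each list below. Among other ADAMs that can shed membrane proteins, 5 were tested. ADAM19 was 5.82-fold higher and ADAM8 11.2-fold lower in pLB, with ADAM8 at 4.01 to 4.12 in pLUM and 0.38 to 0.73 in pLB. ADAM9, ADAM12 and ADAM15 were not called.

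Of 10 genes that accompany or mature the sheddases, 3 were called higher and 1, RHBDF1, lower, against 23.0% and 23.6% of all genes tested. TSPAN5 and TSPAN17, tetraspanins that carry ADAM10 to the surface, were 8.31-fold and 2.29-fold higher in pLB. The other 4 tetraspanins of this group, TSPAN10, TSPAN14, TSPAN15 and TSPAN33, were not called. FURIN, a convertase that removes the prodomain of ADAM proteases, was not well above background in pLUM and was at least 3.06-fold higher in pLB.

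The TIMPs, tissue inhibitors of metalloproteases, were also higher in pLB, in all 3 tested of 4. TIMP1, which inhibits ADAM10, was 7.77-fold higher, and TIMP2 2.72-fold higher. TIMP3, the tissue inhibitor of ADAM17, was not well above background in pLUM, with -6.23, -5.45 and -6.17. It read 1.67, 1.43 and 1.39 in pLB, an excess of at least 117-fold. The fitted difference was 7.45 (limma adjusted p = 8.2e-07). Transcripts of the sheddases and of TIMP1 and TIMP3 thus differed in the same direction, and no protease activity was measured.

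Of 4 genes of ligand transport and of cleavage outside the ADAM family, 3 were called higher in pLB. NKD2, which directs TGFA precursor to the basolateral membrane, was 3.69-fold higher by its brighter probe, but 2.85-fold lower by a dim one whose lines overlapped. CD9, a tetraspanin that associates with HBEGF, was 2.19-fold higher, and CNIH, a cargo receptor for EGFR ligands, 2.16-fold higher. RHBDL2, a rhomboid protease that can cut EGF, was not called.

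Among 10 genes listed as attenuators of EGFR signaling, 3 were called higher in pLB and none lower, with a median difference of 0.26. The shares over all genes tested were 23.0% higher and 23.6% lower. LRIG3, a membrane protein of the LRIG family, was 12.6-fold higher. ERRFI1 (MIG6), an inhibitor of the EGFR kinase, was 3.23-fold higher, and CBL, a ubiquitin ligase of the activated receptor, was 2.04-fold higher. The receptors themselves did not move together: EGFR was 180-fold higher in pLB by its brightest probe and 5.07-fold and at least 17.2-fold higher by others, ERBB3 was 6.39-fold lower, ERBB4 was lower by at least 235-fold, and ERBB2 was not called by its brighter probe (1.75-fold lower) but was called 2.04-fold higher by a dimmer one. Of the neuregulins, the ligands of ERBB3 and ERBB4, NRG2 and NRG4 were tested and were 2.42-fold and 5.69-fold higher in pLB.

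**Figure D3:**
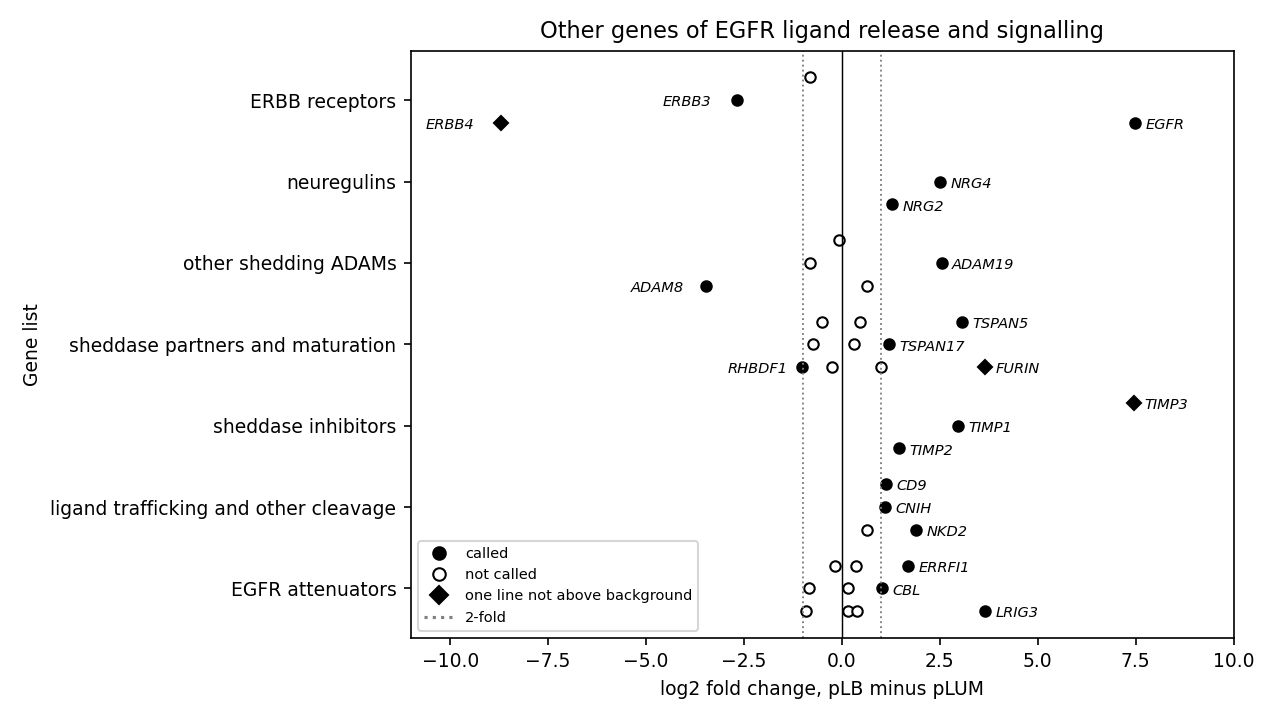
log2 fold change of pLB minus pLUM (x axis) for the 38 tested genes of 7 lists (y axis), 1 symbol per gene; filled symbols are called genes, with their names, and diamonds are genes not well above background on any array of one line. The 3 tested protease inhibitors lie above 2-fold, while the receptors lie on both sides of 0.

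The chromosome 4 ligands were set beside their neighbors. Within 500 kb of the 497.1 kb that the probes of EPGN, EREG, AREG and BTC spanned, 7 other genes were tested and 6 were not. All 7 lay on the EPGN side. Of them 4 were called higher in pLB and none lower, against 23.0% and 23.6% of all genes tested. Their median difference was 3.26, or 1.06 with the 3 genes not well above background in pLUM at their bound. The nearest of the 7, MTHFD2L, 10.6 kb from the EPGN probe, was not called by its probe brighter on average. There the difference was -0.05 (SE 0.32, limma adjusted p = 0.91). That probe was well above background on only 2 of 3 pLUM and 1 of 3 pLB arrays, so both lines lay near background. Another MTHFD2L probe, 187.5 kb away, was well above background on all 3 pLB arrays and at least 7.01-fold higher in pLB. On average over the 6 arrays it was nearly as bright as the first, and by it MTHFD2L would have been called higher. The MTHFD2L probes thus disagreed. LOC541467, at 156.5 kb, was not called, with a difference of 0.20. It too was well above background on only 2 of 3 pLUM and 1 of 3 pLB arrays.

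The other genes that were called there encode chemokines, and all of them but CXCL2, like CXCL5 below, were named after their values were seen. CXCL2 was 110-fold higher, CXCL1 at least 929-fold, CXCL3 at least 5.36-fold and PF4V1 at least 2.08-fold higher in pLB. By contrast CXCL5, between CXCL1 and CXCL3, differed by 0.05 (SE 0.26) and was not called. Higher signals in pLB were thus not shared by every tested gene of the stretch.

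**Figure D4:**
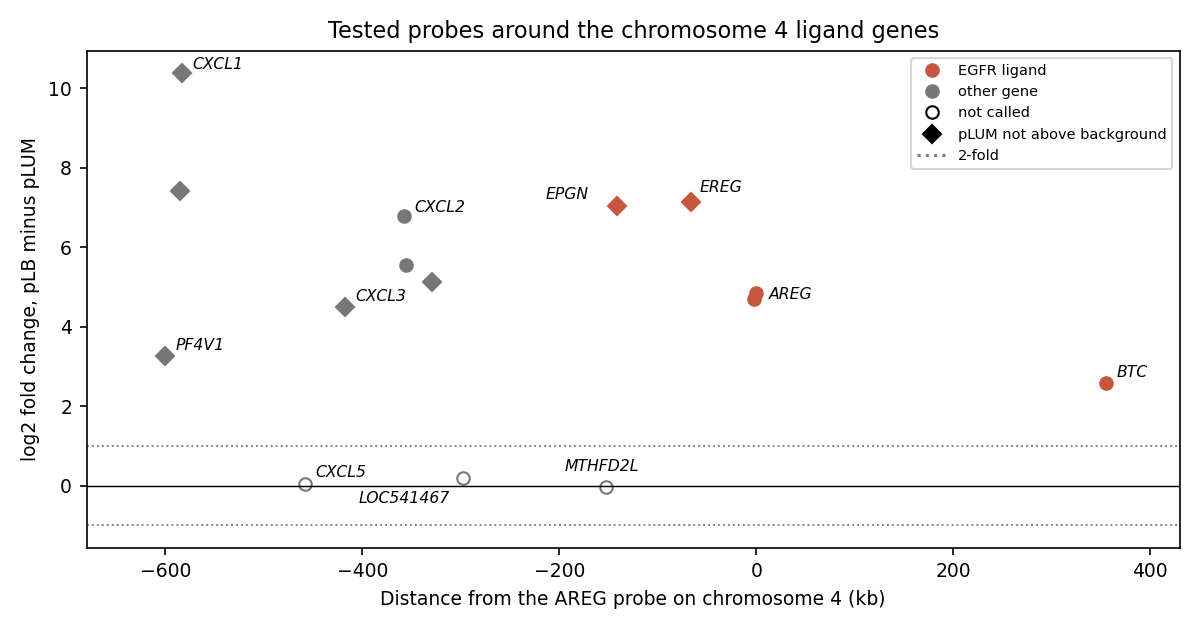
log2 fold change of pLB minus pLUM (y axis) for each tested probe against its distance in kb from the AREG probe on chromosome 4 (x axis); red symbols are EGFR ligands, grey ones other genes, diamonds probes not well above background in pLUM, and open symbols probes that were not called. The MTHFD2L probe nearest EPGN and LOC541467, each near background in both lines, and CXCL5 lie near 0 among probes that were higher in pLB. Another MTHFD2L probe is among those higher probes.

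In RefSeq for GRCh38.p14 the protein-coding genes EPGN, EREG, AREG and BTC follow each other in this order with no other protein-coding gene between them. The 250 bases before the start of a gene were searched on both strands for 6 motifs: TATAAA (the TATA box), TGACGTCA (the cAMP response element, CRE), TGANTCA (AP-1), AGGTCA (the half-site of the estrogen receptor and other nuclear receptors), GGAATG (TEAD) and GGGCGG (SP1), none of which contains another. All 10 genes matched the RefSeq table, TGFA and RHBDF2 with more than 1 start each. The sequences of the chromosome 4 group, of HBEGF and of EGF are shown because these ligands moved most, with every match to a motif in capitals.
EPGN, chr4:74308220-74308469, plus strand: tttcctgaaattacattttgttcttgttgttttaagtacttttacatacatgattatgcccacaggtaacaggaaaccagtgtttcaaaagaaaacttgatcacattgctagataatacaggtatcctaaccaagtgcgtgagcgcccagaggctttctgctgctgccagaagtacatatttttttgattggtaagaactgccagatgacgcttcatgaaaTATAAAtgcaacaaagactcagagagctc
EREG, chr4:74364895-74365144, plus strand: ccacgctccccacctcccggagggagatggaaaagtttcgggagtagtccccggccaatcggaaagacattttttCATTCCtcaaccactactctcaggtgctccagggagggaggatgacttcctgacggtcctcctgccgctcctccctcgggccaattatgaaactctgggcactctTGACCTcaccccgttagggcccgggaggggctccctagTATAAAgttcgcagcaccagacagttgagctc
AREG, chr4:74444886-74445135, plus strand: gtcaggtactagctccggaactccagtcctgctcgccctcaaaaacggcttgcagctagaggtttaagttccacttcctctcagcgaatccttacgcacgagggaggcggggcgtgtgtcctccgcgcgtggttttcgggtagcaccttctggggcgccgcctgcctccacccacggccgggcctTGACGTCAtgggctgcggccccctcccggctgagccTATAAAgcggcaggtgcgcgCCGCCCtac
BTC, chr4:74794524-74794773, minus strand: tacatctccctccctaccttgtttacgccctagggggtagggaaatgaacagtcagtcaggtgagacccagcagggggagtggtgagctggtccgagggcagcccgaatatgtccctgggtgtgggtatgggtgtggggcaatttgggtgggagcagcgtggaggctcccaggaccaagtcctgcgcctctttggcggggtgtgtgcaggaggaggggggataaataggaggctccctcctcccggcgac
HBEGF, chr5:140346604-140346853, minus strand: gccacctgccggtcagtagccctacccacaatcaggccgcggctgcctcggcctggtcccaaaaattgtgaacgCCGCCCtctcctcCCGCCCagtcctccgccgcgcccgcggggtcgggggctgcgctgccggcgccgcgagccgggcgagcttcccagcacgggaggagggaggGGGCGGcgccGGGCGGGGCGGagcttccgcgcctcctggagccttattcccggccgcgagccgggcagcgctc
EGF, chr4:109912633-109912882, plus strand: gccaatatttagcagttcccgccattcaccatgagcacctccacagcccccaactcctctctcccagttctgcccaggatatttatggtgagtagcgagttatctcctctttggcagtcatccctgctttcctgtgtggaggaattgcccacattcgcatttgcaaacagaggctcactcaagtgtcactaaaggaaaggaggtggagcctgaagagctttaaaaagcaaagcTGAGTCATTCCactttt

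EPGN, EREG and AREG, which are adjacent and were all called higher in pLB, each had TATAAA, 29 to 24, 32 to 27 and 29 to 24 bases before the start. None of the other 7 genes had it in this window, and 10.7% of 35116 RefSeq promoters did. AREG had the CRE, 65 to 58 bases before the start, which 1.65% of promoters had. EREG had an estrogen receptor half-site and a TEAD motif, found in 12.1% and 11.9% of promoters. EGF had an AP-1 and a TEAD motif that overlap, 17 to 7 bases before the start, and AP-1 was found in 6.57% of promoters. HBEGF had SP1 motifs at 5 places, and 6 of the 10 genes had at least 1, at any of their starts. The motif was found in 42.6% of promoters, where each start of a gene counts separately, so that the shares have different units. BTC had none of the 6 motifs in this window. A match describes letters only, and no binding was measured.

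The genes whose signal followed that of AREG most closely over the 6 arrays were HS3ST3A1 (Pearson's r 0.9997), DNASE1L3 (0.9997) and KCNG1 (0.9996), all higher in pLB. The 6 arrays form 2 groups, so that r mostly reflects the difference between lines, and 955 of 16771 other genes had an r of at least 0.99.

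Across the processing alternatives, AREG, whose brighter probe was well above background on all arrays, ranged from 4.65 to 5.09, and RHBDF2 from 1.05 to 1.49, both called throughout. EREG and EPGN, near background in pLUM, were called under every alternative that tested them, but ranged from 2.58 to 7.39 and from 2.55 to 7.29. ADAM10 ranged from 2.48 to 3.25 and was called throughout. Leaving out each array in turn left 8 genes called higher and 1 lower. Within slide 1, where pLB is a single array, the differences were 4.99 for AREG, 7.2 for EREG, 6.94 for EPGN, 4.92 for HBEGF, 2.21 for BTC and -2.66 for EGF, equal to those with slide as a block. For the sheddases and RHBDF2 they were 3.23 for ADAM10, 1.31 for ADAM17 and 1.20 for RHBDF2.

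**Figure D5:**
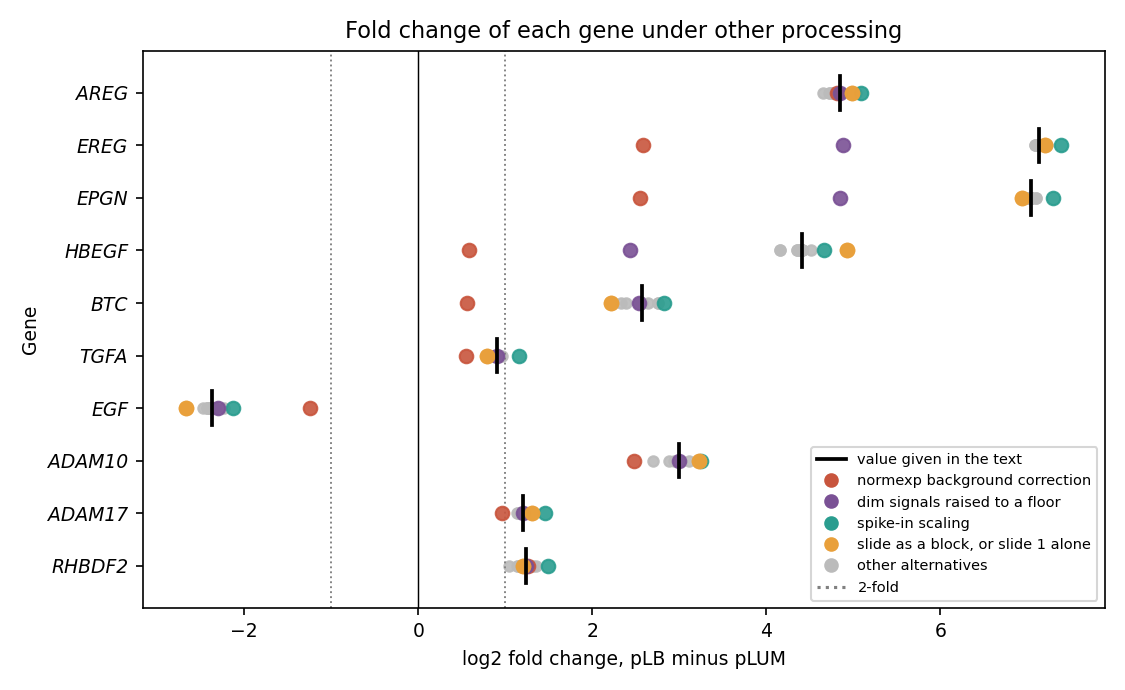
log2 fold change of pLB minus pLUM (x axis) of each gene (y axis) as given in the text (black bars) and under the alternatives (dots), with background correction by normexp, dim signals raised to a floor, spike-in scaling and slide shown by color. With normexp HBEGF, BTC and ADAM17 lie under 2-fold, while AREG and RHBDF2 barely move.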

How the data were processed

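RNA from 3 pLUM and 3 pLB sorts was hybridized to 1-color Agilent arrays. What the authors deposited is the output of Feature Extraction 10.10.1.1 for every array, in which each spot has a linear intensity, corrected for background and detrended but not normalized between arrays. Names and probe positions are those of the files (hg19). Partek is named in the submitters' processing notes, with no role given.

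The deposited intensity was divided by the 75th percentile of its array (474 to 566 in pLUM and 449 to 869 in pLB) and expressed as log2. Control spots and, on each array, 296 to 387 spots with an outlier flag were removed, and the remaining spots of each probe were averaged. The 23103 of 34127 probes that 3 or more of the 6 arrays read well above background were fitted with limma 3.58.1 under R 4.3.3 (lmFit, then eBayes), and p-values were adjusted over all of them by the Benjamini-Hochberg method. The fit was tested on simulated data. With 3 arrays a line, exact permutation cannot reach a two-sided p under 0.1, so p-values come from this fit and not from permutation. The number of arrays limits the precision.

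The named genes are the 10 genes with every probe, the ERBB receptors, called genes of 7 lists (at most 3 in each direction), the 3 nearest tested neighbors on each side of the chromosome 4 ligands, and the 3 genes most like AREG. List genes that were not called, such as FRMD8, were named after their values were seen. Genes and lists were chosen with earlier results of these data known. Promoters came from RefSeq tables of GRCh38.p14. Alternatives were normexp background correction with an offset of 50, other scalings, filters, a signal floor, thresholds, tests, ways to combine probes, blocks by replicate number or slide, and leaving out each array. Replicate numbers were not used as pairs.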

Additional observations from a re-analysis of the deposited data

How the results depend on the processing

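The calls of 8 genes as higher and 1 as lower in pLB were the same in number under every alternative except normexp background correction with its offset of 50 (5 higher), spike-in scaling and no fold threshold, which added TGFA, and the restriction to probes well above background on all 6 arrays (4 higher, 0 lower), under which EREG, EPGN, HBEGF, BTC and EGF were not tested. No difference changed direction. With normexp, 3004 rather than 5054 of all probes and 10 rather than 16 genes of the other lists were called higher. Of those lists, 8 genes rather than 4 were called lower with quantile normalization and 9 with no fold threshold. Spike-in scaling moved the median of all genes by 0.25, and the share of called probes with the higher signal in pLB was then 58.2%, against 48.0%, while normexp moved the median by -0.23. With an array left out, 8 genes were called higher and 1 lower each time, the other lists had 15 to 17 higher and 4 lower, and all probes 4994 to 5122 higher and 5107 to 6159 lower. Same-numbered arrays did not deviate together (r -0.27, -0.10 and -0.22). With so few arrays in a line, and the pLB arrays on different slides, these r cannot decide whether the sorts were run as pairs. A replicate block left 8 genes called higher and 1 lower and 4986 and 5383 probes. The methods' t-test, at 2-fold, called 4931 probes higher and 5199 lower, and 4759 and 4861 after Benjamini-Hochberg adjustment. Signals near background set what can be measured for EREG, EPGN, HBEGF and BTC in pLUM and for EGF in pLB.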
